A study of Mus musculus with 6 samples.

Results

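The genes described here are 44 genes of the cell cycle and of DNA replication, measured in whole hearts of WT mice and of mice without *Trdn-as*. They were chosen by gene symbol for their function, with earlier results of these data known. All 44 are among the 21776 genes of the table. *Trdn-as*, a long non-coding RNA, is made from the strand opposite to *Trdn*, the gene of triadin. In the KO mice a cassette with a polyadenylation site was placed by Cas9 in the first exon of *Trdn-as* in embryonic stem cells, and the allele was homozygous and on a C57BL/6 background, whereas the WT hearts carried no such cassette. There were 3 KO and 3 WT hearts, with 1 strand-specific total RNA library each. By the study's methods the allele is a germline one, present in every cell, whereas the design text of the series names cardiomyocytes as the deficient cells. The hearts are labelled as adult, and the age and sex of these 6 mice are not given in the sources used here. The labels call the libraries separate samples of each genotype, and the p-values below measure the spread between these samples.

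Cells divide by passing through G1, S, G2 and M phase. D-type cyclins with Cdk4 and Cdk6 inactivate the pocket proteins of the Rb family, which frees E2F factors to switch on the genes of DNA synthesis. Origins of replication are loaded with the Mcm helicase and fired in S phase, and later the mitotic cyclins, Aurora and Polo kinases and the kinetochore proteins separate the chromosomes. Most cardiomyocytes of the adult mouse heart have left the cell cycle, and much of the division that remains is in endothelial cells, fibroblasts and leukocytes. The mRNAs of many mitotic genes can therefore be scarce in whole heart RNA.

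Values are normalised read counts, which are the reads of a gene divided by a size factor for the depth of its library. The libraries held an estimated 3.15 to 3.62 M reads in KO and 2.59 to 3.46 M in WT, and that of WT replicate 1 was the shallowest. A count of 3 reads, taken as the floor, was a value of 2.61 to 3.77 depending on the library, and this floor covers counting error only. *Trdn-as* itself was at 1, 0 and 1 in KO and at 690, 773 and 688 in WT, as the labels have it. Differences are log2 fold changes of KO over WT on the scale of log2(value + 1), tested with limma over the 13753 genes with a mean of at least 10. Across all of these genes 4 were called at an adjusted p under 0.05, which is 0.0291% of the genes tested, and 2 of the 4 were *Trdn-as* and *Trdn*. Leaving out 1 library gave 2 to 32 calls, with the 32 being without KO replicate 1.

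None of the 44 genes was called as different between KO and WT hearts. The test took in 32 of the 44, those that reached a mean of 10, and 0 of the 32 had an adjusted p under 0.05 by limma. The smallest adjusted p was 0.36, that of *Cenpf*. An unadjusted p under 0.05 was reached by 4 of them, *Cenpf*, *Cenpe* and *Cdk6* with higher and *Mcm7* with lower values in KO, against 5.74% of all genes tested. Without KO replicate 3 or without WT replicate 1 it was reached by 1 gene, and without KO replicate 2 by 2 genes. Over all genes tested 790 genes reached it, and 507, 600 and 641 in these 3 fits. The KO values all lay above the WT values in 2 genes, *Cenpf* and *Mcm3*, where 4.64% of all genes tested did so. They all lay below the WT values in 1 gene, *Mcm7*, where 4.44% of all genes did so.

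The direction of the small differences was mostly towards KO. The log2 fold change was above 0 in 25 of the 32 genes and below 0 in 7, and the median was 0.12. Over all genes tested, 50.6% were above 0 and the median was 0.00. Among the 6340 genes tested whose mean value lay within the middle range of these 32 genes, from 25.9 to 165, 55.2% were above 0, against 78.1% of the 32, and the median was 0.02. The genes of a cell cycle list share their cells and their regulators and are not independent of each other, so that this count was not tested. Without KO replicate 3 the count was 21 of the 30 genes then tested and the median 0.06. Leaving out 1 heart moved the log2 fold change by over 1.5 times, or turned its sign, in 30 of the 32 genes, all but *Mcm3* and *Mcm7*. Near 0 a small shift meets this limit, as in *Ccnd1* (-0.01, or -0.03 without KO replicate 3). The shift was larger in *Bub1b* (0.14, or -0.21 without WT replicate 1). No share over all genes was computed for this count. The log2 fold changes ran from -0.38 (*Kif20a*) to 0.51 (*Cenpe*), and their 95% intervals reached 0.13 to 0.71 to either side, with a median of 0.33. Summed over all 44 genes, the values were 5488, 5156 and 5389 in KO and 4957, 5122 and 4661 in WT, so that every KO sum lay above every WT sum. Without *Cenpf* the sums overlapped, at 4255 to 4385 in KO and 4080 to 4321 in WT. Of the 8 groups by role, the sums were apart in 2, the inhibitors and pocket proteins and the mitotic machinery, and overlapped in the others. The mitotic sums were apart by 1330 against 1326 and overlapped without *Cenpf*. No share over other sets of genes was computed for sums, and of single genes tested 4.64% had all KO values above all WT values. In bulk RNA, fewer cells of a type and less RNA per cell cannot be told apart.

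**Figure D1:**
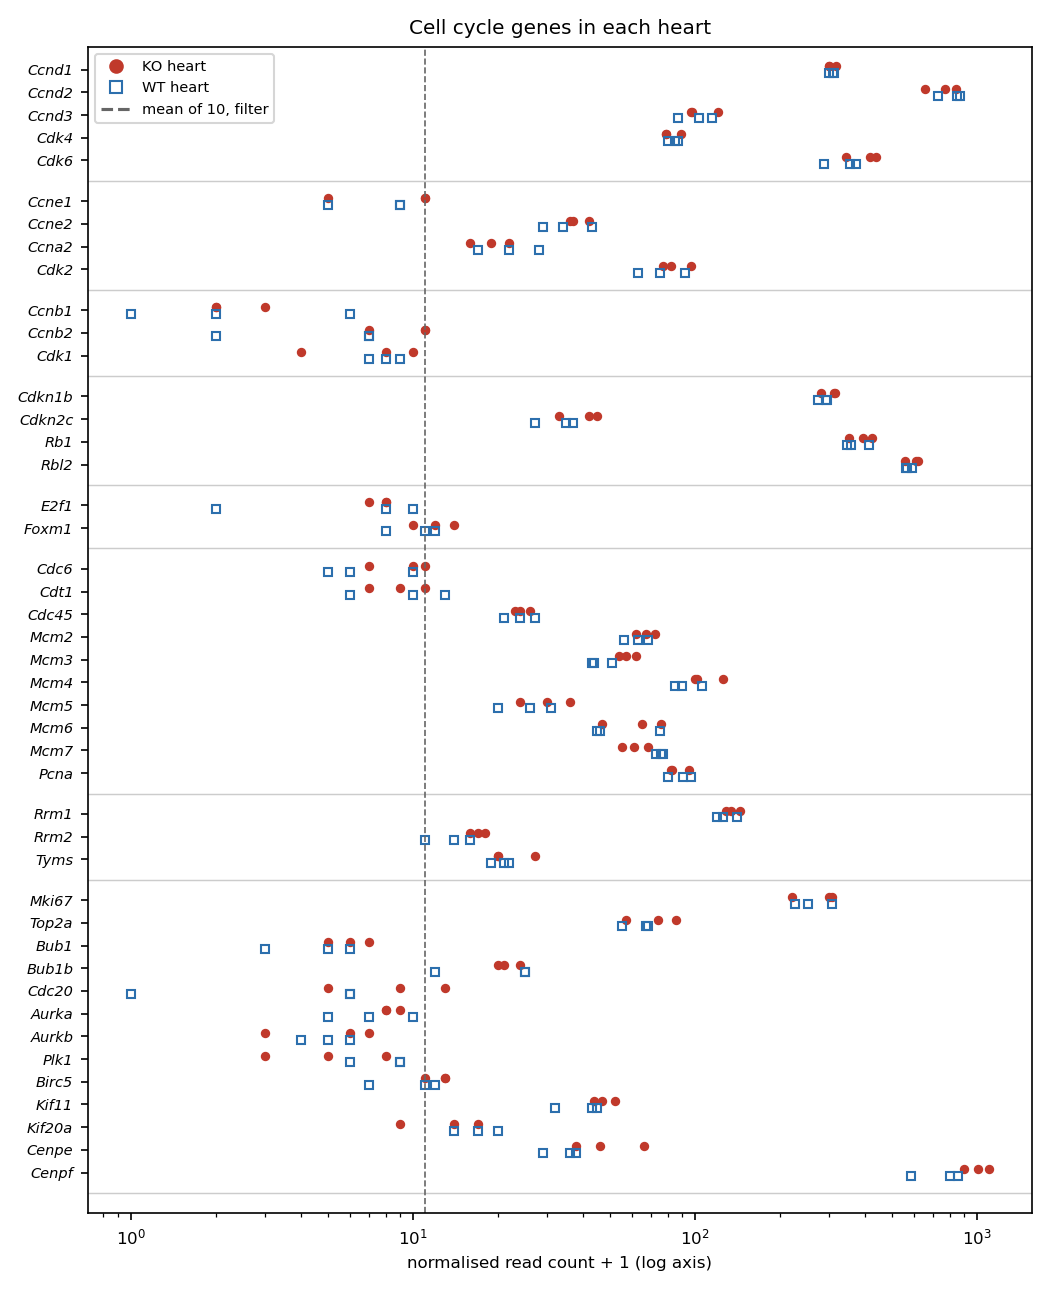
Normalised read count plus 1 (horizontal log axis) of the 44 genes in each of the 3 KO hearts (filled circles) and 3 WT hearts (open squares), grouped by role. The dashed line marks the mean of 10 needed for the test, and the groups overlap in every gene to its right except *Cenpf*, *Mcm3* and *Mcm7*.

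The promoters of 5 genes are given here, since these are the tested genes with an unadjusted p under 0.05 or with groups that did not overlap. Each is the stretch of 250 bases before the transcription start of RefSeq on GRCm38.p6, read 5′ to 3′ on the strand of the gene. Capitals mark matches on either strand to the CCAAT box and to the E2F motif. *Cdk6* lies on the plus strand and its window is chr5:3343643-3343892. *Mcm3* lies on the minus strand with the window chr1:20820313-20820562. *Mcm7* lies on the minus strand with the window chr5:138171884-138172133, inside the gene of the table, which starts upstream at 138172422. *Cenpe* is a plus strand gene with the window chr3:135212313-135212562, whose last bases, the CCAAT match included, lie inside the gene of the table, which starts at 135212537. The last is *Cenpf*, a minus strand gene with the window chr1:189688087-189688336.
Cdk6: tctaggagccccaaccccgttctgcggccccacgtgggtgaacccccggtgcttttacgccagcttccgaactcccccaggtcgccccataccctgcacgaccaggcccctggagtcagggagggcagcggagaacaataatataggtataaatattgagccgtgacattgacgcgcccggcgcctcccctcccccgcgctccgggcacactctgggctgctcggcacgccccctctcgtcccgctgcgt
Mcm3: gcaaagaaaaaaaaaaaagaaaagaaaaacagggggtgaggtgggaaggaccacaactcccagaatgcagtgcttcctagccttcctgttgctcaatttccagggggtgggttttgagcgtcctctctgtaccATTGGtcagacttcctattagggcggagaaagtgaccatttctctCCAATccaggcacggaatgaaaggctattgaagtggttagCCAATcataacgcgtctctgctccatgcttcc
Mcm7: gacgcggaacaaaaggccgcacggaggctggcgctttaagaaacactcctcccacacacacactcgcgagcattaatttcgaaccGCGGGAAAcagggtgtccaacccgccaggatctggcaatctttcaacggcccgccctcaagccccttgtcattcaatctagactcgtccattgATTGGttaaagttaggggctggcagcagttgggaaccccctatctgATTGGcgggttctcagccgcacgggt
Cenpe: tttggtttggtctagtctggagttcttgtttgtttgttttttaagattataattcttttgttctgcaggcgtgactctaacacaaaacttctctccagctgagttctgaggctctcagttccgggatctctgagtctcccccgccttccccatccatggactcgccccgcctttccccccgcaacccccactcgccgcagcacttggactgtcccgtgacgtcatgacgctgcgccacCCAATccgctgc
Cenpf: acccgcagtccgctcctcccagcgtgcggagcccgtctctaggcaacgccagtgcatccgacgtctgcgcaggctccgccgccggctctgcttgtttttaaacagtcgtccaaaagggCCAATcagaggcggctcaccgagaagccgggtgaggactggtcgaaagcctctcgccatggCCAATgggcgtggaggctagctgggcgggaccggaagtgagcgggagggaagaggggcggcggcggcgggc

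The windows differed in the motifs they held. *Cenpf* had CCAAT from 132 to 128 and from 71 to 67 bases before the start, *Mcm3* had it at 3 places, and *Cenpe* had it once, ending 8 bases before the start. *Mcm7* was the only one of the 5 with an E2F match, which lies from 165 to 158 bases before the start on the other strand. The window of *Cdk6* held none of the motifs searched. Those were CCAAT, the E2F motif as TTTCCCGC, TTTGGCGC, TTTCGCGC or TTTGCCGC, and TTTGAA, the letters of the cell cycle homology region (CHR), each on both strands. Windows were found for 35 of the 44 genes. As a check of the starts, the 40 bases after the start were sought in the GENCODE M21 transcripts of the same gene. They were found for 25 of these genes and not for the others. CCAAT was in 25 of the 35 (71.4%) and in 37.5% of 27025 genes with a window, and E2F motifs in 6 of 35 (17.1%, *Cdk2*, *Cdk1*, *Cdc6*, *Mcm5*, *Mcm6* and *Mcm7*) and in 2.16% of all. TTTGAA was in 9 of 35 (25.7%) and in 18.3% of all. In the mitotic machinery, 10 of 11 genes with a window had CCAAT and 0 of 11 an E2F motif. Of the 9 origin and fork genes with a window, 4 had an E2F motif. A match is a description of the letters, and no match says only that these letters are not in the window.

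The abundances of the 44 genes spanned a wide range. Per kilobase of exon, which is the scale used to compare genes with each other, the level was highest for *Ccnd2* (83.5), *Rbl2* (76.9), *Ccnd1* (64.5), *Cdkn1b* (64.3), *Rb1* (63.3) and *Cenpf* (56.7). Over the 6 hearts the ranges of *Ccnd2* (69.5 to 92.3) and *Rbl2* (73.4 to 81.6) overlapped, as did those of *Ccnd1*, *Cdkn1b*, *Rb1* and *Cenpf* with each other. *Pcna* (36.2), *Mcm4* (28.0), *Mki67* (26.6) and *Cdk6* (26.3) followed, and with these 10 genes the levels above the median of all genes tested (25.8) ended. The median of the 32 tested genes was 12.2. At the lower end stood *Cdk1* (1.35), *Bub1* (0.995) and *Ccnb1* (0.395). The level of *Ccnd2* was 211 times that of *Ccnb1*, which is no exact ratio, since *Ccnb1* had 5 libraries at 3 reads or fewer. Among the lowest were also *Cdc6* (1.37) of origin licensing and *Foxm1* (1.77), whereas the mitotic cyclin *Ccnb2* stood at 4.25.

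The G1 cyclins and kinases, which answer to growth signals, had summed values at a KO to WT ratio of 1.00. *Ccnd2* was the D-type cyclin with the highest level per kilobase, 1.29 times that of *Ccnd1* and 7.15 times that of *Ccnd3*. It was at 844, 769 and 654 in KO and 868, 848 and 729 in WT. This is a log2 fold change of -0.11 ± 0.08 (SE). Leaving out KO replicate 3 gave -0.01. Leaving out KO replicate 1 gave -0.20 (unadjusted p 0.0272 by limma), and leaving out WT replicate 3 gave -0.19 (0.0305). *Ccnd1* was at 297, 298 and 315 in KO and at 309, 307 and 297 in WT, and its interval of -0.16 to 0.15 was among the narrowest. *Ccnd3* was at 104 ± 13.6 in KO and 101 ± 14.0 in WT (SD, n = 3 each), and *Cdk4*, the kinase partner of all D-type cyclins, at 81.3 ± 5.77 and 83.0 ± 3.61. These 4 genes overlapped between the groups.

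*Cdk6* (ENSMUSG00000040274), the other kinase of the D-type cyclins, was the G1 gene with the largest difference. It was at 341, 436 and 415 in KO and at 287, 354 and 372 in WT. The groups overlapped, since KO replicate 1 lay below WT replicates 2 and 3. The log2 fold change was 0.24 ± 0.10 (SE), with an unadjusted p of 0.0267 and an adjusted p of 0.851 by limma. The difference rested partly on the lowest heart, WT replicate 1, without which it was 0.12 with an unadjusted p of 0.225. Summed over the 5 genes, the values were 1667, 1677 and 1582 in KO and 1662, 1697 and 1563 in WT, a ratio of 1.00.

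Inhibitors and pocket proteins, which hold cells in G1 or in quiescence, were measured well above the floor and all 4 had a log2 fold change above 0, none with an unadjusted p under 0.05 by limma. *Cdkn1b*, which encodes the CDK inhibitor p27, was at 312, 311 and 279 in KO and 272, 292 and 291 in WT, with an interval of -0.09 to 0.24. *Rb1*, the retinoblastoma gene, was at 389 ± 35.6 and 372 ± 36.1 (SD, n = 3), and *Rbl2*, which encodes the pocket protein p130 of quiescent cells, at 592 ± 32.9 and 570 ± 14.6. *Cdkn2c*, which encodes the Cdk4 and Cdk6 inhibitor p18, had the largest difference of the 4, at 0.28 ± 0.20 (SE), from 44, 32 and 41 in KO and 26, 34 and 36 in WT. Without WT replicate 1, the lowest heart, it was 0.14. In each of the 4 the highest WT heart lay above the lowest KO heart, but the sum of the 4 did not overlap, at 1325, 1321 and 1318 in KO and 1204, 1269 and 1304 in WT, a ratio of 1.05.

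Of the S phase cyclins and their kinase, *Ccne1* lay below the filter and the other three were tested. *Cdk2*, the kinase partner of cyclins E and A, was at 81, 96 and 76 in KO and 91, 74 and 62 in WT. *Ccne2*, an E-type cyclin that opens S phase, was at 37.3 ± 3.21 in KO and 34.3 ± 7.09 in WT (SD, n = 3). *Ccna2*, the cyclin of S and G2 phase, had the opposite sign at -0.22 ± 0.27 (SE), with 18, 15 and 21 in KO and 21, 16 and 27 in WT. It was -0.04 without WT replicate 3 and -0.40 without WT replicate 2. The groups overlapped in all of these genes. *Ccne1* had 4, 10 and 10 in KO and 8, 4 and 8 in WT.

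Among the transcription factors, *E2f1*, an activator of S phase genes, lay below the filter with 6, 7 and 7 in KO and 1, 9 and 7 in WT. *Foxm1*, which drives the genes of G2 and M phase, was at 11, 9 and 13 in KO and 11, 10 and 7 in WT, just above the filter. Its log2 fold change was 0.22 with an interval of -0.48 to 0.93, and it was 0.05 without WT replicate 3.

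The 6 subunits of the Mcm2-7 helicase, which opens DNA at the fork, did not share a direction. Their log2 fold changes were 0.11 (*Mcm2*), 0.33 (*Mcm3*), 0.22 (*Mcm4*), 0.23 (*Mcm5*), 0.19 (*Mcm6*) and -0.30 (*Mcm7*), each with an SE of 0.13 to 0.24. With 1 heart left out, *Mcm4* ran from 0.12 (without KO replicate 3) to 0.31 and *Mcm5* from 0.06 (without WT replicate 1) to 0.38. Per kilobase of exon their levels ran from 6.72 to 28.0. Summed over the 6 genes the values were 389, 342 and 415 in KO and 347, 373 and 337 in WT, a ratio of 1.08 with overlapping groups.

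*Mcm3* (ENSMUSG00000041859) was at 56, 53 and 61 in KO and at 43, 50 and 42 in WT, so every KO heart lay above every WT heart. Its log2 fold change of 0.33 had an unadjusted p of 0.0563 and an adjusted p of 0.851 by limma. *Mcm7* (ENSMUSG00000029730) had the reverse order, with 67, 60 and 54 in KO below 72, 76 and 75 in WT. Its interval was -0.60 to -0.01, with an unadjusted p of 0.0464 and an adjusted p of 0.851. *Mcm7* hosts the microRNAs *Mir93* and *Mir25*, whose annotation shares 3.89% of its exonic bases. Both genes carry the CCAAT motif in the promoters printed above, and the E2F match is in that of *Mcm7*.

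*Mcm4* was at 101, 99 and 125 in KO and 84, 105 and 89 in WT, with the 105 of WT replicate 2 above 2 of the KO hearts. *Mcm6* spread most within the groups, at 64, 46 and 75 in KO and 74, 45 and 44 in WT, and its log2 fold change ran from 0.04 to 0.43 when 1 heart was left out. *Mcm2* was at 66.0 ± 5.00 and 61.3 ± 6.03 and *Mcm5* at 29.0 ± 6.00 and 24.7 ± 5.51 in KO and WT (SD, n = 3). In these 4 genes the groups overlapped.

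*Pcna*, the sliding clamp of the DNA polymerases, was at 94, 82 and 81 in KO and 79, 90 and 96 in WT, a log2 fold change of -0.04. *Cdc45*, which joins the helicase to make it active, was at 23.3 ± 1.53 and 23.0 ± 3.00 (SD, n = 3). *Cdc6* and *Cdt1*, which load the helicase onto origins, both lay below the filter, *Cdc6* with 6, 9 and 10 in KO and 5, 9 and 4 in WT and *Cdt1* with 8, 6 and 10 in KO and 5, 9 and 12 in WT. Of the nucleotide supply genes, *Rrm1*, the large subunit of ribonucleotide reductase, was at 135 ± 8.19 in KO and 128 ± 10.8 in WT. *Rrm2*, its small subunit made in S phase, was at 15, 17 and 16 in KO and 13, 15 and 10 in WT, with a log2 fold change of 0.33 ± 0.29 (SE), or 0.18 without WT replicate 3. *Tyms*, the thymidylate synthase gene, was at 21.3 ± 4.04 and 19.7 ± 1.53.

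**Figure D2:**
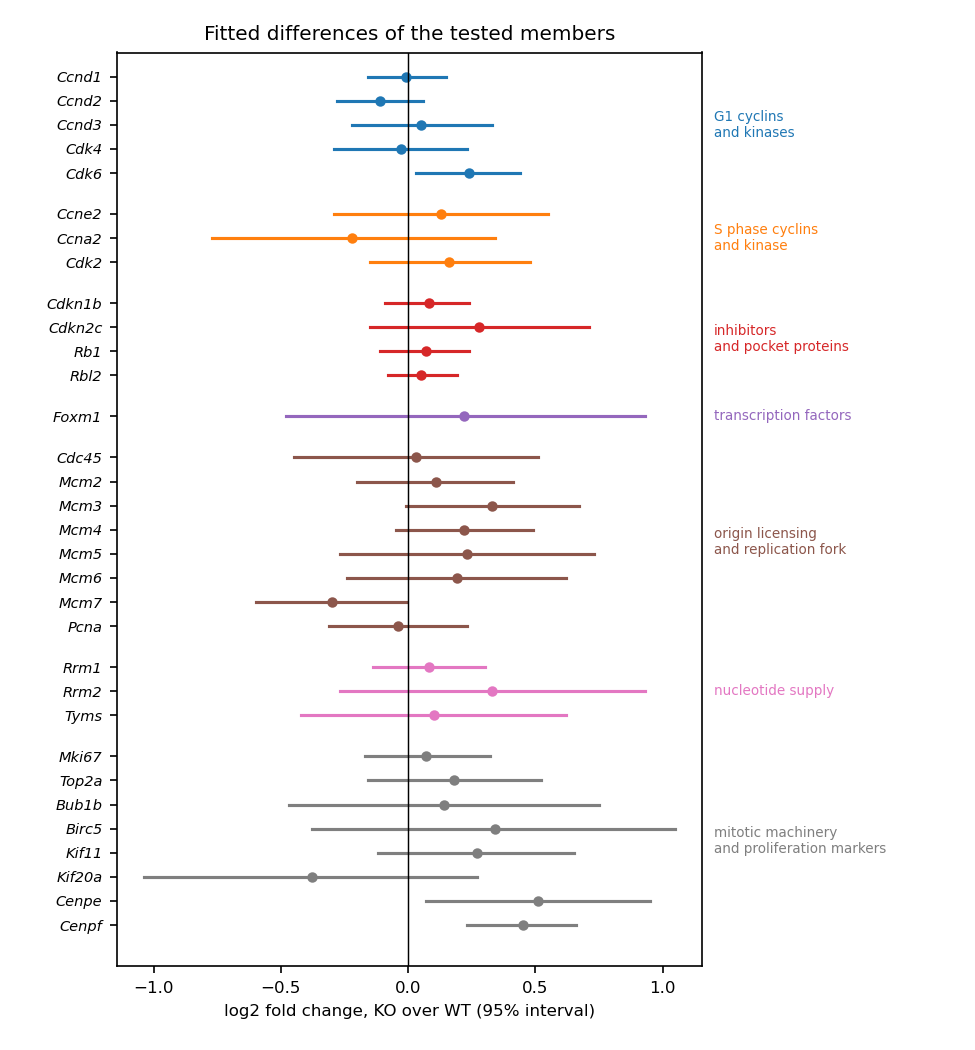
Log2 fold change of KO over WT on the log2(value + 1) scale (horizontal axis) of the 32 tested genes, with points for the estimate and lines for the unadjusted 95% interval, coloured by role. The intervals of *Cenpf*, *Cenpe* and *Cdk6* lie above 0 and that of *Mcm7* ends just below 0 at -0.01.

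*Cenpf* (ENSMUSG00000026605, minus strand of chromosome 1 from 189640606 to 189688086), which encodes a very large protein of the outer kinetochore and the nuclear envelope, had the highest level of the mitotic genes and the smallest p of the 32 tested genes. It was at 1103, 901 and 1011 in KO and at 853, 801 and 581 in WT. Every KO heart lay above every WT heart, and WT replicate 3 was far below the other two. KO hearts averaged 1005 ± 101 and WT hearts 745 ± 144 (SD, n = 3), a ratio of 1.35. The log2 fold change was 0.45 ± 0.10 (SE), with an interval of 0.23 to 0.66 and an unadjusted p of 0.000337, rank 12 of the 13753 genes. After adjustment by limma over all genes the p was 0.36, so *Cenpf* was not called. The small p depended on the mean-variance trend of the fit. In a limma fit without it, the unadjusted p of *Cenpf* was 0.0324 (adjusted 0.842). That was above those of *Mcm3* (0.0158) and *Mcm7* (0.0197). Without WT replicate 3 the log2 fold change was 0.28.

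Per kilobase of exon the level of *Cenpf* was 2.14 times that of *Mki67*, the next of the 13 mitotic genes, and 46.1% of the summed level per kilobase of the 13 was that of *Cenpf*. Its share of their summed read values, which are not corrected for length, was 64.1%. The sum of the 13 was 1330 to 1626 in KO and 1008 to 1326 in WT, which did not overlap. The sum of the other 12 was 523, 429 and 592 in KO and 439, 525 and 427 in WT, with means of 515 ± 81.8 and 464 ± 53.5 (SD, n = 3) and overlapping groups. The spread of *Cenpf* between hearts of a group was 17.9 times the variance expected from counting reads, against a median of 0.915 over the tested genes. *Ccnd2* (9.37), *Mki67* (7.30) and *Cdk6* (6.13) were the other genes above 5 times. *Rbl2* (1.11), *Ccnd1* (0.235), *Cdkn1b* (0.817) and *Rb1* (3.38) also had more reads than *Mki67*. The ratio was near or below 1 in the first 3 and above it in *Rb1*.

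*Mki67*, which encodes the Ki-67 antigen of cycling cells, was at 297, 220 and 306 in KO and at 250, 305 and 225 in WT. Both groups held high and low hearts, and the interval of the log2 fold change, 0.07, was -0.17 to 0.32. *Top2a*, the topoisomerase that untangles chromosomes before mitosis, was at 73, 56 and 85 in KO and 67, 66 and 54 in WT. *Top2a* and *Mki67* had KO replicate 2 as the lowest KO heart, as did *Cenpf*.

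*Cenpe* (ENSMUSG00000045328), a kinesin of the kinetochore, had the largest fold change of the tested genes. It was at 45, 37 and 65 in KO and 28, 35 and 37 in WT, so that the lowest KO heart and the highest WT heart were level. The log2 fold change of 0.51 ± 0.21 (SE) had an unadjusted p of 0.0247 and an adjusted p of 0.851 by limma. KO replicate 3 alone held the value of 65, and without it the log2 fold change was 0.29 with an unadjusted p of 0.21. Without WT replicate 1 the unadjusted p was 0.104.

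*Kif11*, the motor that pushes the spindle poles apart, was at 46, 43 and 51 in KO and at 31, 42 and 44 in WT. *Bub1b*, which encodes a kinase-like protein of the spindle checkpoint, was at 20.7 ± 2.08 and 19.7 ± 7.51, and *Birc5*, the survivin gene of the chromosomal passenger complex, at 11.3 ± 1.15 and 9.00 ± 2.65 (SD, n = 3). *Kif20a*, a kinesin of cytokinesis, was the only 1 of the 8 tested mitotic genes with a log2 fold change below 0, at -0.38 ± 0.31 (SE), from 8, 16 and 13 in KO and 16, 19 and 13 in WT. Without the heart at 8, KO replicate 1, it was -0.12, and without KO replicate 2 it was -0.58. The groups of these 4 genes overlapped.

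**Figure D3:**
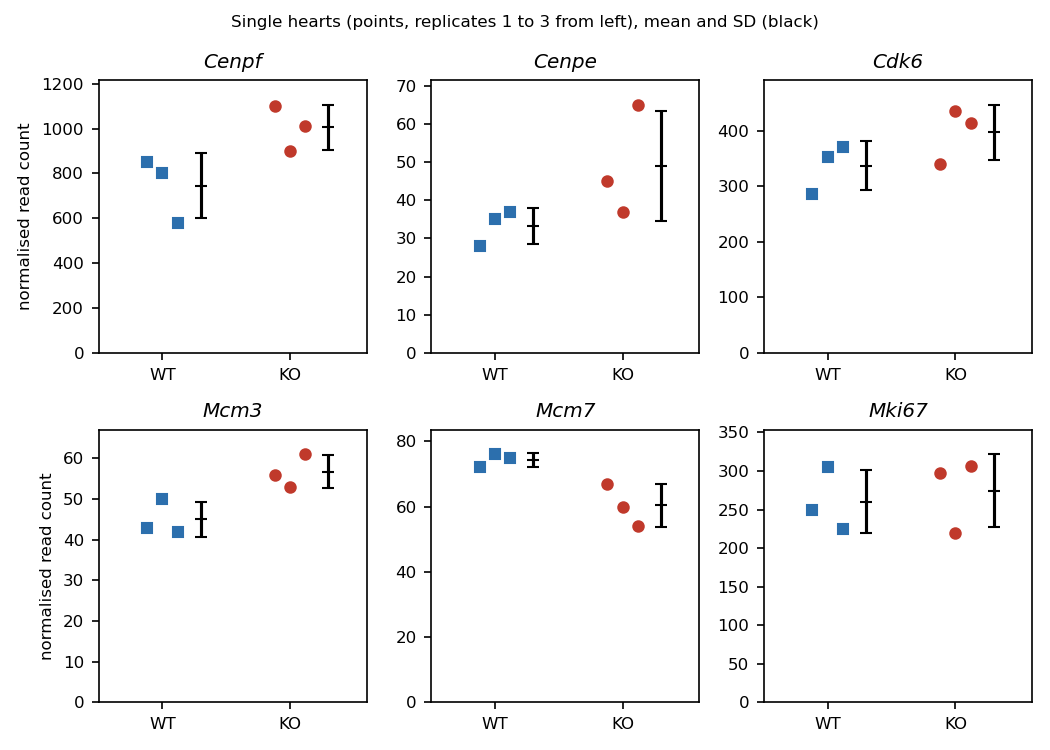
Normalised read count (vertical axes from 0) of 6 genes in each WT heart (squares) and KO heart (circles), with replicates 1 to 3 from left to right and the mean and SD in black. The groups are apart in *Cenpf*, *Mcm3* and *Mcm7*, touch at 37 in *Cenpe* and overlap in *Cdk6* and *Mki67*.

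The 12 genes below the filter were close to the floor and hold the defining kinases of mitosis. Over the 6 hearts, 36 of the 44 genes stayed above 3 reads in every library and 8 had at least 1 library at 3 reads or fewer, though none had all 6. *Ccnb1*, the B-type cyclin that triggers mitosis, had 2, 1 and 1 in KO and 1, 0 and 5 in WT, with 5 libraries at the floor, and the 0 of WT replicate 2 allows a value of up to 3.14. *Aurkb*, the kinase of the chromosomal passenger complex, had 6, 2 and 5 in KO and 4, 3 and 5 in WT, and *Bub1*, a checkpoint kinase, had 4, 6 and 5 in KO and 4, 2 and 5 in WT. *Plk1*, the Polo kinase of mitotic entry, had 4, 2 and 7 in KO and 8, 8 and 5 in WT. These values are of a few reads per heart.

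*Cdk1*, the mitotic kinase itself, was at 3, 7 and 9 in KO and 8, 7 and 6 in WT. *Aurka*, the kinase of the spindle poles, was at 7, 7 and 8 in KO and 9, 6 and 4 in WT. *Ccnb2*, the other B-type cyclin, was at 10, 10 and 6 in KO and at 1, 6 and 6 in WT. *Cdc20*, the activator of the anaphase-promoting complex, was at 4, 8 and 12 in KO and 0, 5 and 5 in WT. The 0 of *Cdc20* in WT replicate 1 allows a value of up to 3.77. In both of these last genes WT replicate 1, the shallowest library, was the lowest heart, and the groups overlapped. With no filter these were the 2 further genes with an unadjusted p under 0.05 by limma, at log2 fold changes of 1.04 ± 0.48 (SE, p 0.0426) for *Ccnb2* and 1.34 ± 0.59 (SE, p 0.0321) for *Cdc20*, both with an adjusted p of 0.915. Summed over the 12 genes the values were 64, 75 and 90 in KO and 54, 68 and 72 in WT, again with an overlap between the groups.

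The hearts differed in how often they were highest or lowest. Ties included, KO replicate 3 was the highest of the 6 hearts in 12 of the 32 tested genes, KO replicate 1 in 7, KO replicate 2 in 6, and WT replicates 2 and 3 in 4 each, whereas WT replicate 1 was highest in 1. WT replicate 1 was the lowest heart in 13 genes and WT replicate 3 in 11, against 1 to 4 for each of the others. As a share, WT replicate 1 was lowest in 40.6% of the 32 genes and in 20.4% of all genes tested, WT replicate 3 was lowest in 34.4% and 18.7%, and KO replicate 3 was highest in 37.5% and 17.4%. No test was made of these shares. *Cdk6*, *Mcm5*, *Bub1b*, *Kif11* and *Cenpe* were among those lowest in WT replicate 1, and *Cenpf*, *Top2a*, *Rrm2*, *Birc5* and *Foxm1* among those lowest in WT replicate 3. In *Mcm3*, *Mcm4* and *Rrm2* these 2 hearts held the lowest values together. WT replicate 2 was lowest in 1 gene.

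**Figure D4:**
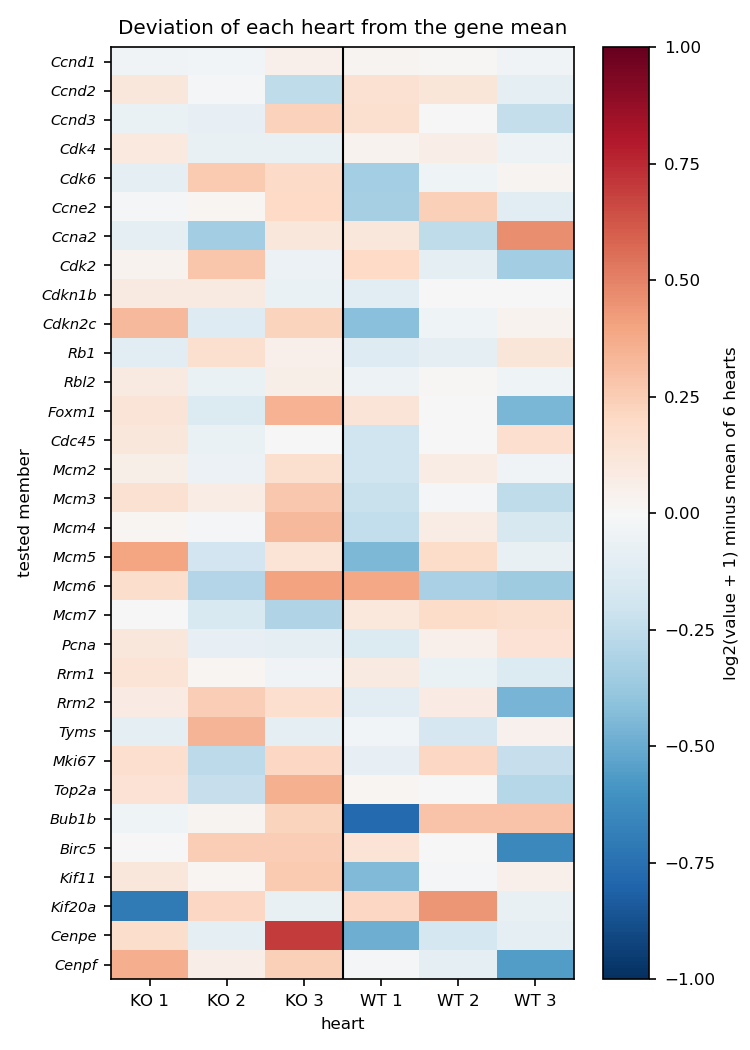
Deviation of each heart from the mean of the 6 hearts on the log2(value + 1) scale (colour) for the 32 tested genes (rows), with KO hearts left and WT hearts right of the line. Red is above and blue below the gene mean, and many of the deeper blue cells are in WT replicates 1 and 3.

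A further 93 genes of the cell cycle, taken from the same pathways for their function, put these values in context. They too were chosen with earlier results of these data known. 92 of them were in the table and 1 was not analysed here. Of these, 76 were tested, 0 were called, and 47 (61.8%) had a log2 fold change above 0 with a median of 0.05. By limma 5 of the 76 had an unadjusted p under 0.05, beside 5.74% of all genes tested, at adjusted p-values of 0.807 to 0.851. That count was 2 without KO replicate 3 or without WT replicate 1, and 8 without KO replicate 1. Over all genes tested the same count, 790, was 507, 600 and 1135 in these 3 fits. *Prim2*, a subunit of the primase, was at 31, 40 and 59 in KO and 25, 27 and 32 in WT (log2 fold change 0.57, or 0.33 without KO replicate 3). *Pold1*, the catalytic subunit of DNA polymerase delta, was at 45, 67 and 45 in KO and 30, 43 and 34 in WT (0.53, or 0.34 without KO replicate 2). *Incenp*, the scaffold of the chromosomal passenger complex, was at 50, 42 and 56 in KO and 35, 39 and 31 in WT (0.48).

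*Lin9*, a subunit of the MuvB core, which is part of the repressive DREAM complex and also binds activators of cell cycle genes, was at 53, 62 and 66 in KO and 43, 52 and 44 in WT (0.37). *Gmnn*, which encodes geminin, the inhibitor of Cdt1, was lower at 64, 62 and 57 in KO against 70, 87 and 77 in WT (-0.35). By role, the log2 fold change was above 0 in 23 of 35 replication genes, 13 of 24 mitotic genes, 9 of 14 genes of the E2F, pocket protein and DREAM group and 2 of 3 CDK inhibitors. The mitotic genes of this list thus had a median of 0.03, while the 8 tested mitotic genes among the 44 had a median of 0.22 with 7 of 8 above 0.

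**Figure D5:**
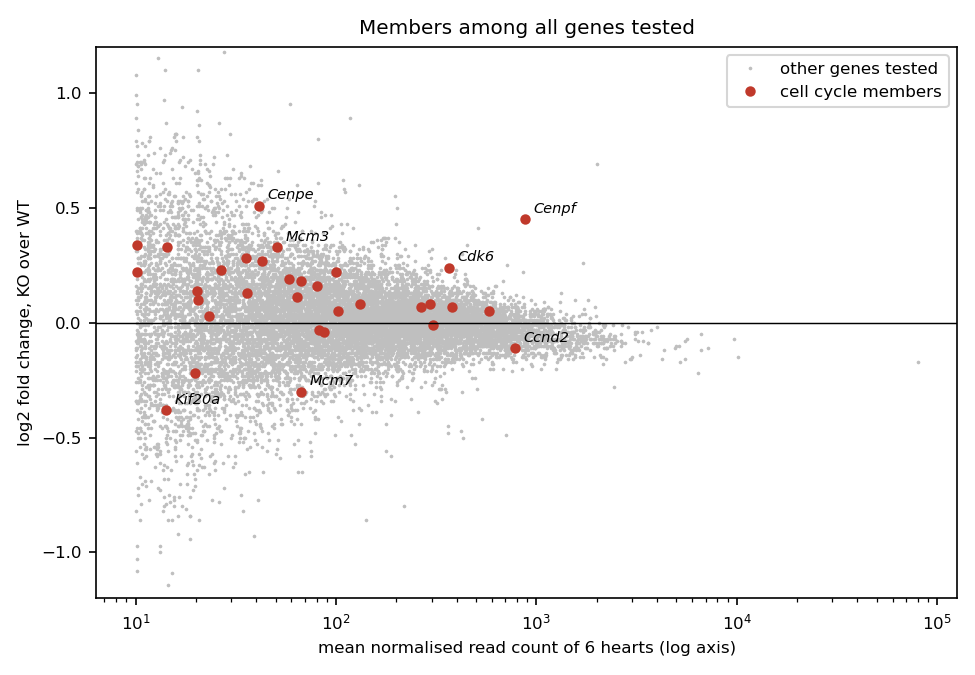
Log2 fold change of KO over WT (vertical axis, cut at 1.2 to either side, which leaves out 5 genes) against the mean normalised read count of the 6 hearts (horizontal log axis) for all genes tested (grey) and the 32 cell cycle genes (red). *Cenpf* sits at the upper edge of the genes of its level at 0.45, and most other red points lie inside the grey cloud.

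The levels of cell type markers were read from lists. In bulk RNA they do not separate the number of cells from the RNA per cell. Cardiomyocyte markers were abundant, with sums of 18679 to 19999 in KO and 19568 to 23890 in WT for the 6 genes *Myh6*, *Tnnt2*, *Actc1*, *Ryr2*, *Pln* and *Nkx2-5*. All 6 were lower in KO by a log2 fold change of -0.34 to -0.15, and 5 of them, all but *Actc1*, had an unadjusted p under 0.05, where 5.74% of all genes tested did, with 0 called by limma (smallest adjusted p 0.807). Without WT replicate 1, whose sum was the highest, *Myh6* was at -0.07 (unadjusted p 0.267), *Tnnt2* at -0.06 (0.372) and *Pln* at -0.05 (0.358). Of these 5 genes, an unadjusted p under 0.05 was left in 2 without WT replicate 1, in 0 without WT replicate 2, in 1 each without KO replicate 1 or KO replicate 2, and in all 5 without KO replicate 3 or WT replicate 3. Without WT replicate 3 *Myh6* and *Tnnt2* were at -0.26 and *Pln* at -0.24. The 5 endothelial markers had log2 fold changes of 0.01 to 0.10 and sums of 3711 to 4262 in KO and 3727 to 4150 in WT. The leukocyte sums were 751 to 1059 in KO and 859 to 960 in WT, and the erythroid sums 164 to 304 in KO and 151 to 423 in WT. All 5 erythroid markers had a log2 fold change below 0 with a median of -0.22, none with an unadjusted p under 0.05 by limma, and the ratio of their summed means was 0.768. Of the 5 fibroblast markers 2 were above 0 and 3 below, and of the 5 smooth muscle and pericyte markers 1 was above and 4 below. Their part in the values of the cell cycle genes was not tested.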

How the data were processed

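RNA of 6 hearts, 3 *Trdn-as* KO and 3 WT, was sequenced as strand-specific total RNA with single-end reads. Per the submitters' processing notes, Trimmomatic 0.39, STAR 2.6.1d, Picard 2.21.1, featureCounts 1.6.5 and DESeq2 1.18.1 were used with the build mm10 (GRCm38). The authors counted uniquely mapped exonic reads per gene by strand and divided them by DESeq2 size factors. The deposited table holds these values as rounded whole numbers, treated here as a score and not as counts, and it holds no fold changes of the authors. Close paralogs can be under-counted, since reads of more than 1 location were dropped.

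Size factors, and from them read totals, were estimated from the rounding pattern of the values. On simulated data of 21776 genes, 30 factors were recovered with errors of at most 0.000838% and 10 factors within 1% of 1, as in KO replicate 3 (1.005), with at most 0.588%. Genes with a mean of at least 10 were compared on log2(value + 1) with limma 3.58.1 in R 4.3.3 (lmFit, eBayes with trend, two-sided, Benjamini-Hochberg, threshold 0.05, no covariate), since normalised values do not allow the count test that was planned had raw counts been given. Exon lengths came from GENCODE M21 and promoters from RefSeq. The members and lists were chosen with earlier results of these data known. Named were all 44 members, *Trdn-as*, *Trdn*, up to 6 genes of the wider list with the smallest unadjusted p under 0.05, and cell type markers with such a p. *Actc1* and the genes used to describe which hearts were lowest were named after their values were seen. Alternatives were other pseudocounts (0.1 and 5), filters, scalings, limma-voom, no trend, a replicate block, each library left out in turn and a threshold of 0.01. A gene counted as holding a motif if any of its promoter windows did.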

Additional observations from a re-analysis of the deposited data

How the results depend on the processing

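None of the 44 genes, of the wider list or of the cell type lists was called by limma under any of the 16 alternatives. The depth of 2.59 to 3.62 M reads limits the 12 genes below the filter, of which 8 had a library at the floor. Over all genes the count of calls, 4, became 2 with at least 10 in every sample, 1 without the mean-variance trend and 2 at a threshold of 0.01, and it ran from 2 to 32 when a library was left out (32 without KO replicate 1, 2 without KO replicate 2 or WT replicate 1, 7 without WT replicate 3). The cause was not tested. Of *Trdn-as* and *Trdn* together, 1 was called with at least 10 in every sample, where *Trdn-as* is not tested, and 1 without the trend, where the adjusted p of *Trdn* was 0.145. Samples of the same number did not deviate together (correlations across genes of 0.05, -0.07 and -0.03). This gave no sign that the numbers pair the hearts, but a pairing that acts on some genes only was not tested. With a replicate block 0 members and 4 genes in all were called.

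The members with an unadjusted p under 0.05 by limma, 4, were 1 to 5 when a library was left out (1 without KO replicate 3 or WT replicate 1, 2 without KO replicate 2), 3 with the replicate block and 6 of 44 with no filter, where all genes had 800 and 1151 against 790. The largest unadjusted p of *Cenpf* by limma was 0.0324, without the mean-variance trend. *Cenpf* kept an unadjusted p under 0.05 in all 16 alternatives, at log2 fold changes of 0.28 to 0.55 and adjusted p-values of 0.176 to 0.922. *Cenpe* did so in 13, *Cdk6* in 12 and *Mcm7* in 7. The log2 fold change kept its sign in 25 of the 32 tested genes and changed it in some alternative in 7 (*Ccnd1*, *Ccnd3*, *Cdc45*, *Pcna*, *Tyms*, *Mki67* and *Bub1b*). Total scaling moved the median of the members to 0.14 and that of all genes to 0.02.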
